A study of Mus musculus with 8 samples.

Results

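The subject is a cluster of binding sites for phosphorylated STAT3 on mouse chromosome 5, in the window from 107500000 to 107750000 (chr5:107500000-107750000) of the genome build mm9, which covers the gene Tgfbr3. Members were all peaks of the 6 deposited peak lists that overlapped this window. They made up 11 distinct sites of 5343 sites of exact position in all lists. The window was chosen from the positions of the peaks themselves, so the number of sites in it and their listing are given as a description, without a test.

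The lists come from chromatin immunoprecipitation followed by sequencing (ChIP-seq), with an antibody against tyrosine-phosphorylated STAT3, in mouse embryonic fibroblasts. All cells were STAT3-/- and re-expressed a single spliceform, STAT3α or STAT3β, from an inducible construct held under puromycin selection. 4-Hydroxytamoxifen (1 nM, 48 h or longer) switched the construct on, and the cells were kept serum-free for the final 16 h. Human recombinant oncostatin M was then given at 10 ng/mL. The groups are STAT3α cells at 0, 30 and 180 min and STAT3β cells at 0, 30 and 180 min of oncostatin M, with 1 peak list each. Duplicates were merged per sample, so no value has a replicate error, and the labels do not say whether a cell line is 1 clone. With 1 line per spliceform, the line and the spliceform cannot be told apart. The 2 input DNA samples entered no comparison. The lists held 9, 3725 and 40 peaks for STAT3α and 12, 3891 and 120 peaks for STAT3β at the 3 times, and they give no height, p-value or read number. Library depth is unknown, so a site missing from a list was not shown to be unbound.

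Tgfbr3 encodes betaglycan, the type III receptor of the TGF-β family. Betaglycan is a membrane proteoglycan without a kinase domain that presents ligands, TGF-β2 above all, to the signalling receptors. Its shed ectodomain can bind the ligand away from them, and it also acts as a co-receptor for inhibin. Oncostatin M belongs to the interleukin-6 cytokines and signals through JAK kinases, and in mouse cells the human protein is known to act mainly through the LIF receptor with gp130. JAK kinases phosphorylate STAT3, which dimerises and binds DNA. STAT3α carries a C-terminal transactivation domain, which STAT3β lacks.

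Phosphorylated STAT3 was listed in the window at 30 min of oncostatin M and at no other time. The STAT3α lists held 0, 6 and 0 window peaks at 0, 30 and 180 min, and the STAT3β lists held 0, 8 and 0. The window peaks were 0.161% of the STAT3α list and 0.206% of the STAT3β list at 30 min. Of the 11 sites, 3 were listed for both spliceforms, 3 for STAT3α alone and 5 for STAT3β alone. Each site was 400 bp wide, as were 5326 of the 5338 sites of the 30 min lists together, so width did not distinguish them. Peaks listed for both spliceforms had the same start and end in both lists. This held for all overlapping peaks of exact position in the 6 lists, so it was not particular to the window.

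The 3 sites listed for both spliceforms lay in the lower-numbered part of the cluster. The first of them was at chr5:107527112-107527511 and was listed in STAT3α cells and in STAT3β cells at 30 min. The next was at chr5:107550101-107550500, 23.0 kb further on. The last was at chr5:107596905-107597304. They spanned 70.2 kb from the first start to the last end, and none was in a 0 min or 180 min list of either spliceform.

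The 3 sites listed for STAT3α alone were scattered among the others. The site at chr5:107516432-107516831 was the first of the cluster and lay 10.7 kb before the first shared site. The site at chr5:107589356-107589755 lay in the middle of the cluster, between a STAT3β site and a shared site. The third was at chr5:107629306-107629705, 113 kb from the first site of the cluster. No peak of the window was listed for STAT3α beyond it.

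The 5 sites listed for STAT3β alone reached further towards higher positions. They were at chr5:107553553-107553952, chr5:107586483-107586882, chr5:107617565-107617964, chr5:107648369-107648768 and chr5:107718308-107718707. The last 2 lay beyond the last STAT3α site, and the outermost was 89.0 kb beyond it. The window sites spanned 113 kb in the STAT3α list and 192 kb in the STAT3β list. Most of this difference rested on the outermost site, which lay 69.9 kb beyond the site before it. Both lists began near the same point, since 1 STAT3α site lay below the first STAT3β site and was 10.7 kb from it.

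**Figure D1:**
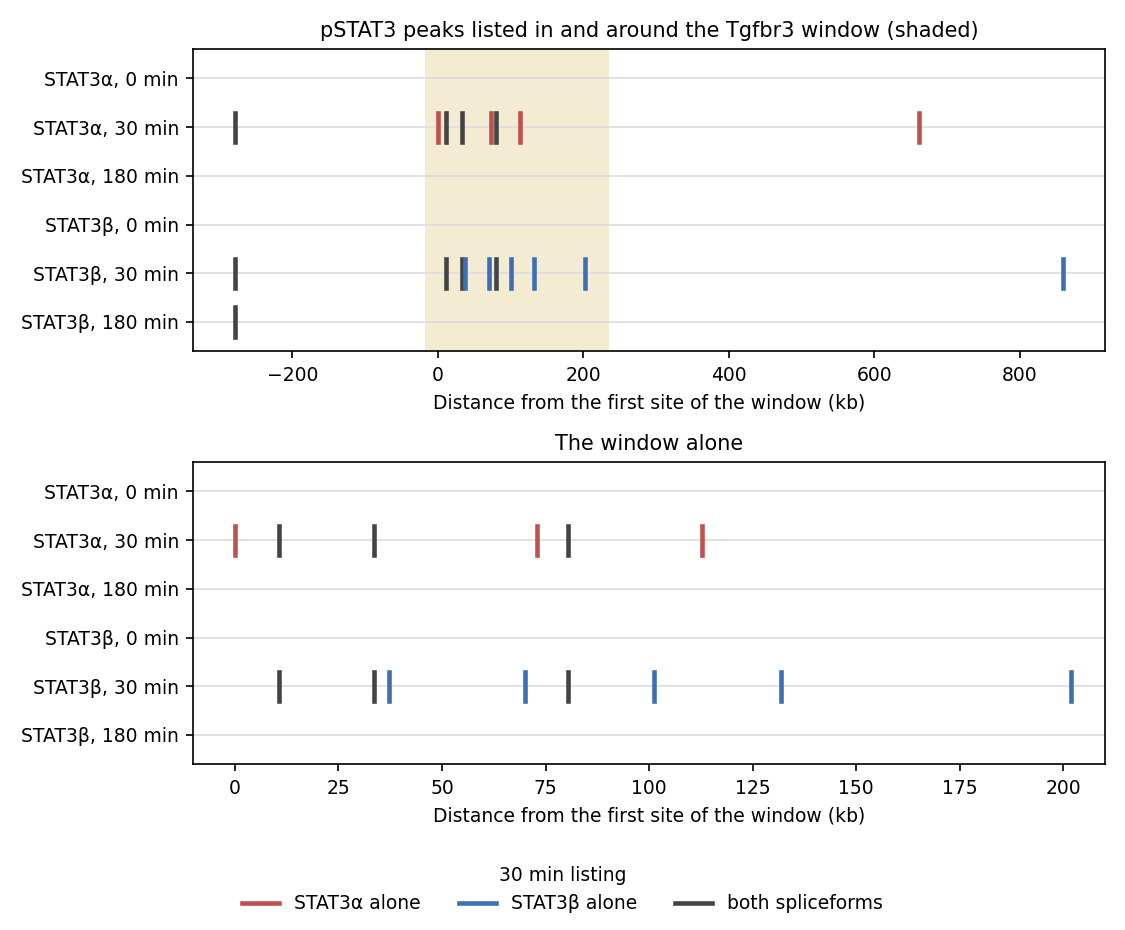
Peaks listed in and around the Tgfbr3 window, drawn as vertical marks by distance in kb from the centre of the first site, with 1 row per peak list (spliceform and minutes of oncostatin M) and colour for the 30 min listing. Marks stand in the 30 min rows of the window, 6 for STAT3α and 8 for STAT3β, and the 0 and 180 min rows of the window are empty.

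Along the chromosome the classes were partly mixed. Of the first 7 sites, up to the last shared one, 3 were shared, 2 were listed for STAT3α alone and 2 for STAT3β alone. The 4 sites beyond the last shared site were 1 of STAT3α alone and 3 of STAT3β alone.

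Several sites of different listing lay within a few kb of each other. The closest pair of the cluster joined a site of STAT3β alone (chr5:107586483-107586882) and a site of STAT3α alone (chr5:107589356-107589755), whose centres were 2.87 kb apart. The second closest joined the shared site at chr5:107550101-107550500 and a site of STAT3β alone 3.45 kb further on. The third spacing under 10 kb, 7.55 kb, lay between the STAT3α-alone site of the closest pair and the last shared site. Single-list sites with a peak of the other spliceform within 10 kb were 1 of 3 for STAT3α alone and 2 of 5 for STAT3β alone. Over all chromosomes this held for 236 of 1447 sites (16.3%) and 246 of 1613 sites (15.3%). Within 50 kb it held for all 3 STAT3α-alone sites and for 4 of the 5 STAT3β-alone sites of the window, against 42.6% and 33.3% over all chromosomes. The exception was the outermost site, which lay 89.0 kb from the nearest STAT3α peak. A dense window brings sites close by its choice, so these distances describe the cluster and were not tested.

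The window was then set beside all 30 min sites for its listing by spliceform. Shared sites were 27.3% of the 11 (95% exact Clopper-Pearson interval 6.02 to 61.0%), against 42.7% of the 5338 sites over all chromosomes. Sites of STAT3α alone were 27.3% in the window (6.02 to 61.0%), against 27.1% over all chromosomes. Sites of STAT3β alone were 45.5% in the window (16.7 to 76.6%), against 30.2% over all chromosomes. Each interval of the window contained the share over all chromosomes. The intervals cover counting over sites only and show how little 11 sites fix a share. When a peak of the other list within 1 kb also counted, the shared share of the window was 27.3%. It could not change, because the closest sites of the window were 2.87 kb apart. With a distance of 10 kb, 54.5% of the window sites and 51.7% of all 30 min sites were shared. A dense window brings sites close by its choice, so the 10 kb values cannot decide whether its lower share holds.

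Counted per list, the shared sites were 3 of the 6 STAT3α peaks of the window (50.0%, interval 11.8 to 88.2%), against 61.2% of the whole STAT3α list. They were 3 of the 8 STAT3β peaks of the window (37.5%, interval 8.52 to 75.5%), against 58.5% of the whole STAT3β list. Chromosome 5 had 358 sites at 30 min, of which 45.0% were shared, 22.9% were listed for STAT3α alone and 32.1% for STAT3β alone. The single-list sites of the window were 37.5% STAT3α and 62.5% STAT3β, against 41.6% and 58.4% on chromosome 5 and 47.3% and 52.7% over all chromosomes.

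**Figure D2:**
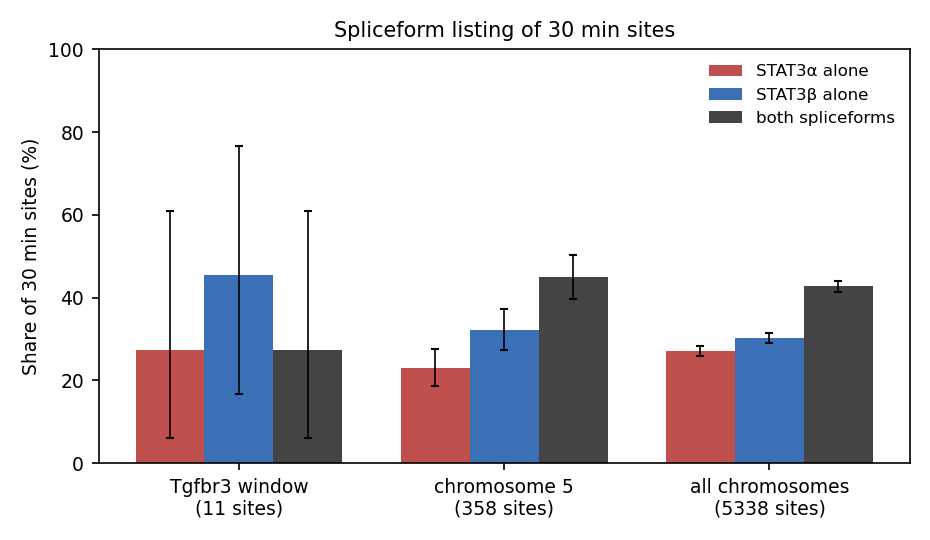
Share of 30 min sites (%) listed for STAT3α alone, STAT3β alone and both spliceforms in the Tgfbr3 window, on chromosome 5 and over all chromosomes. Error bars are 95% exact binomial intervals, which are wide for the 11 window sites and contain the shares over all chromosomes (27.1%, 30.2% and 42.7%).

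No site of the window was listed again at 180 min in STAT3α or STAT3β cells. A count of 0 of 11 sites allows a share of up to 27.3% (3 counts of 11), and of all 30 min sites 2.40% were in either 180 min list. By spliceform 0.693% of all 30 min sites were in the STAT3α list at 180 min and 2.21% in the STAT3β list. The general share lay below that limit. Late listing elsewhere was most frequent among shared sites, 120 of 2278 (5.27%), with 0 of 1447 STAT3α-alone sites and 8 of 1613 STAT3β-alone sites. The window had 3 sites of the shared class.

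The window also held no 0 min site of either spliceform. Over all 30 min sites 0.169% had an exact 0 min position. Some 0 min peaks were listed only with rounded positions, 2 for STAT3α and 4 for STAT3β, but none of these was on chromosome 5. Neither 0 min list had a peak anywhere on that chromosome. All window sites were thus first listed after cytokine.

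The nearest site listed at 180 min lay outside the window. It was at chr5:107237479-107237878, 262 kb below the lower edge, and was listed at 30 min for both spliceforms and at 180 min for STAT3β. The STAT3α list at 180 min did not hold it. Chromosome 5 as a whole carried 2 peaks for STAT3α and 10 for STAT3β at 180 min, at 11 distinct sites. The others nearest to the window were at chr5:105722629-105723028 and chr5:110536563-110536962, 1.87 and 2.95 Mb from the STAT3α-alone site in the middle of the cluster. Both were shared at 30 min and in the STAT3β list alone at 180 min.

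The limits of the cluster were clear of the edges of the window. The first and last sites lay 16.4 kb and 31.3 kb inside them. The nearest 30 min sites outside were the shared site 262 kb below the lower edge and a STAT3α-alone site at chr5:108178449-108178848, 428 kb above the upper edge. A site of STAT3β alone followed at chr5:108376444-108376843. The centre-to-centre distances from the cluster to its neighbours were 279 kb and 460 kb, and 33.0% and 23.4% of all spacings between neighbouring 30 min sites were at least as long.

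Spacing inside the cluster was short. The 10 spacings between neighbouring sites ran from 2.87 to 69.9 kb with a median of 15.4 kb, against a median of 122 kb over 5318 spacings on all chromosomes. Of these 10 spacings, 3 were under 10 kb, against 12.6% of all spacings. Short spacings follow from the choice of a dense window, so these contrasts are a description and were not tested. Within the STAT3α list alone the window sites had a median spacing of 23.0 kb, and within the STAT3β list alone also 23.0 kb. The longest spacing, 69.9 kb, separated the outermost STAT3β site from the rest. The 11 sites together covered 4400 bp of the 202 kb from the first start to the last end.

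In number of sites the window was among the densest of the genome. Chromosomes were divided into tiles of 250 kb, of which the window is one, and 2893 tiles held at least 1 site at 30 min. The median tile of these held 1 site, and 1609 (55.6%) held exactly 1. The Tgfbr3 tile held 11, as did 2 other tiles, and 2 tiles held more, with 12 each. Tiles with 11 or more were 0.173% of those with a site. On chromosome 5 it was the fullest of 186 tiles, and the next held 10 sites. These ranks depended on where tiles begin. With tiles moved by 125 kb the fuller tile of the cluster held 8 sites and ranked 11th, tied with 8 others, and on chromosome 5 it came second to a tile of 13 sites. Over STAT3α peaks only the tile ranked 12th with 6 peaks, tied with 16 others. Over STAT3β peaks only it ranked 5th with 8 peaks, tied with 1 other.

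**Figure D3:**
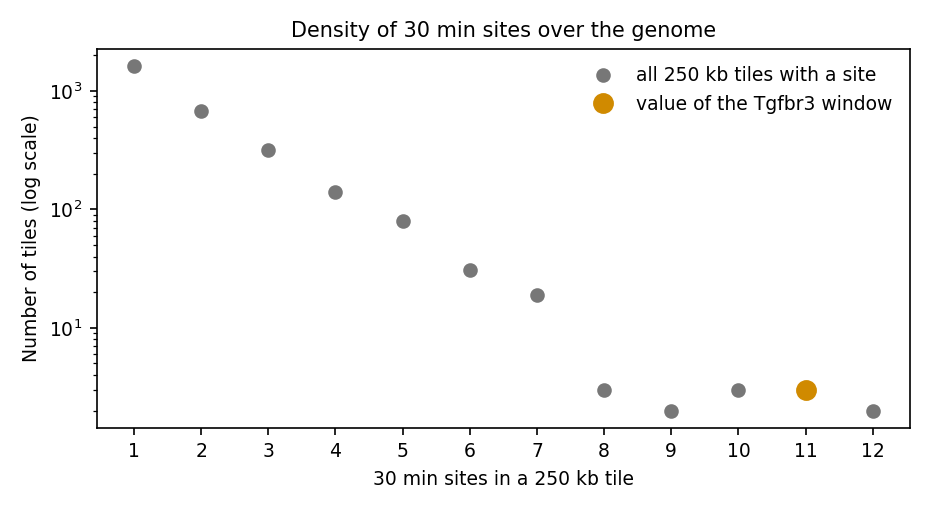
Number of 250 kb tiles (log scale) against the number of 30 min sites in a tile, over all tiles with at least 1 site. The enlarged point marks the 11 sites of the Tgfbr3 window, a value held by 3 tiles and exceeded by 2.

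The fullest tiles differed in how many of their sites were shared. The Tgfbr3 tile had 3 shared sites of 11, against 4 of 11 in the tile starting at 84250001 on chromosome 17 and 7 of 11 in the tile starting at 167500001 on chromosome 2. The tiles with 12 sites, starting at 117750001 on chromosome 11 and at 35750001 on chromosome 17, had 8 and 7 shared sites. Among these 5 tiles the Tgfbr3 tile had the smallest shared share and the most STAT3β-alone sites, 5, against 3 each in the 11-site tiles and 1 each in the 12-site tiles. STAT3β peaks outnumbered STAT3α peaks in the Tgfbr3 tile (6 for STAT3α, 8 for STAT3β) and in the chromosome 2 tile (8 for STAT3α, 10 for STAT3β), and not in the other 3. Among 143 tiles with at least 5 sites the shared share ran from 0 to 100% with a median of 42.9%, and 25 tiles (17.5%) were at or below the 27.3% of the Tgfbr3 tile. The share of STAT3β-alone sites in these tiles had a median of 20.0%, and again 25 tiles (17.5%) reached or passed the 45.5% of the Tgfbr3 tile. No late peak was listed in 122 of the 143 tiles (85.3%), the Tgfbr3 tile among them.

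A second description joined neighbouring 30 min sites into runs wherever they were at most 100 kb apart, a distance chosen after the positions were seen. All 11 window sites then fell into 1 run, which held no site from outside the window. It ranked 10th by number of sites among 2927 runs, together with 1 other run of 11 sites. That other run lay at 75910827 to 76157992 on chromosome 15 and had a similar listing, with 4 shared sites, 2 of STAT3α alone and 5 of STAT3β alone. The longest run had 21 sites over 530 kb on chromosome 2. The run with the most sites on chromosome 5 went from 91110969 to 91320450 over 209 kb. It had 15 sites, of which 6 were shared, 2 were listed for STAT3α alone and 7 for STAT3β alone. At a linking distance of 50 kb the outermost STAT3β site dropped off and the other 10 sites stayed together over 132 kb. At 25 kb the largest piece ranked 6th, tied with 8 others, and held 6 sites over 62.3 kb, from the STAT3β-alone site of the closest pair to the STAT3β-alone site at chr5:107648369-107648768.

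**Figure D4:**
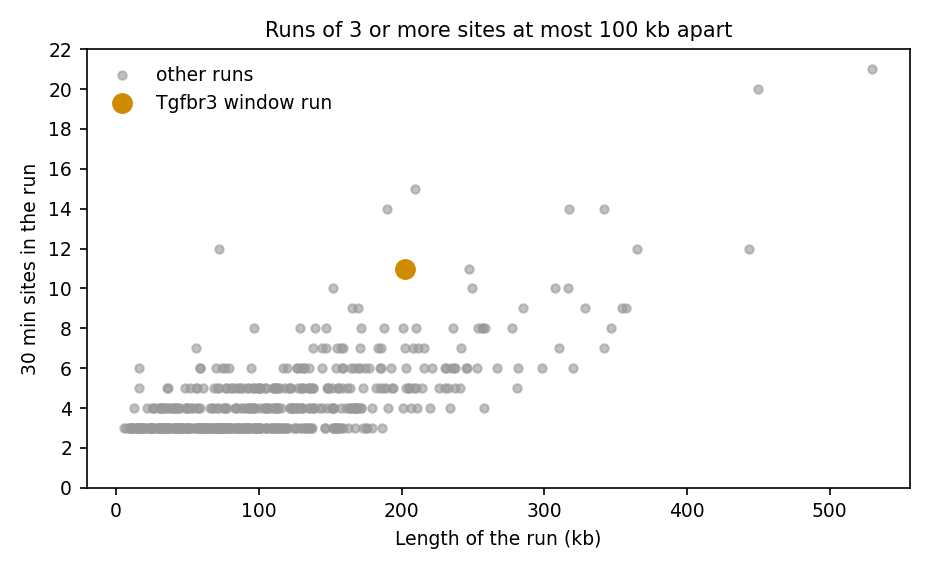
Number of 30 min sites against length in kb for all runs of 3 or more sites at most 100 kb apart. The enlarged point is the run of the Tgfbr3 window, with 11 sites over 202 kb, and the run on the same chromosome with 15 sites over 209 kb stands above it.

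The position of the sites relative to Tgfbr3 itself was described only by order and length. The gene table used here belongs to GRCm38, a later build than mm9, and its coordinates were not carried over. There Tgfbr3 (gene ID 21814) is a protein-coding gene of 183 kb that overlaps a pseudogene, Gm8145. Its nearest neighbours are the lncRNA gene Gm42146 on the side of lower positions and the pseudogene Gm22557 on the side of higher positions. The nearest protein-coding genes are Cdc7, a kinase needed to fire replication origins, on the lower side and Brdt, a bromodomain protein of male germ cells, on the higher side. The 11 sites spanned 202276 bp, longer than the 183063 bp of Tgfbr3 in GRCm38. The first and the last site could therefore not both lie inside a gene of that length. The 6 STAT3α sites and the 3 shared sites spanned less than that length, and the 8 STAT3β sites, with 191596 bp, spanned more. Which sites lie in exons, introns, the promoter or outside the gene was not determined here, and binding near a gene does not show that the gene was regulated.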

How the data were processed

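The 6 peak lists were analysed as the authors deposited them. Each holds the name and the mm9 coordinates of its peaks. Named in the submitters' processing notes are MACS2 2.1.1.20160309, HOMER 4.9, bedtools, STAR 2.5.0a and Trim Galore 0.4.2. Their settings and the peak threshold were not given in the sources used here. Reads of duplicates were merged per sample, per the labels. Positions of 100 Mb and more are rounded in the 0 min lists, which left 6 peaks out of overlaps. Peaks overlapping by 1 bp or more were joined into sites, and positions count from 1. The listing of the sites was compared with that of all 30 min sites, with 95% exact binomial intervals. A count of 0 was given the limit of 3 counts. Tiles of 250 kb and runs of linked sites describe density. The joining and tiling were tested on simulated data. The window and its description were chosen with earlier results of these data known. The planned motif search needs an mm9 genome and was not run. All sites of the window are named, and, by the rule for genes, Tgfbr3 and its neighbours in the RefSeq gene table of GRCm38. Python 3.11.15 was used with scipy 1.17.1, numpy 2.4.6 and, for plots, matplotlib 3.10.9.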

Additional observations from a re-analysis of the deposited data

How the results depend on the processing

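Of 23 alternative values for 8 results, 16 kept within set limits and 7 moved. The limits were 1.5 times for counts, ranks and spacings and the 95% interval for shares. These limits are wide for the 11 window sites and narrow for shares over all chromosomes. Several of the 16 could not have moved, so the tally does not measure stability. Peaks wholly inside the window had to be the same, because its first and last sites lay 16.4 and 31.3 kb inside the edges. Merging peaks within 1 kb could not join sites 2.87 kb apart. Asking for identical start and end could not change the shared sites, because overlapping peaks always had the same coordinates. Rounded positions could add no site, because none was on chromosome 5. The number of sites was 8 in the window narrowed by 50 kb on each side. In windows widened by 50 or 250 kb it could only be 11, because the nearest outside sites lay 262 and 428 kb from the edges. For the same reason the shared share could not change with 50 kb. No late peak could enter with 250 kb, since the nearest late site also lay 262 kb from the edge. The rank of the Tgfbr3 tile by number of sites was 3 over both 30 min lists. With tiles moved by 125 kb, which splits the cluster, the rank was 11. Over STAT3α peaks only it was 12, with 6 peaks in the tile, and over STAT3β peaks only it was 5, with 8 peaks. The share of shared sites over all chromosomes, 42.7%, was 45.0% on chromosome 5 and 44.2% among sites with another site within 50 kb. When a peak of the other list within 10 kb counted, it was 51.7% and that of the window 54.5%. With a distance of 1 kb that of the window could not change from 27.3%, because its closest sites were 2.87 kb apart. A dense window brings sites close by its choice, so the 10 kb values cannot decide whether its lower share holds. The rank of the run, 10 at a linking distance of 100 kb, was 6 at 25 kb (tied with 8 others), 7 at 50 kb (with 1 other) and 14 at 10 kb (with 74 others, at 3 sites). These linking distances and the 51.7% were chosen after seeing the data. No paired analysis was possible because each group has 1 merged peak list. Unknown depth limits every statement on sites missing from a list.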
